A study of Mus musculus with 16 samples.

Results

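The genes described here are the cytochrome P450 genes of families 1 to 4 together with the bile acid, sterol, retinoid and vitamin D genes of the Cyp7, Cyp8, Cyp26, Cyp27 and Cyp39 families, measured in mice with acute hepatitis caused by concanavalin A. They were taken by name from the array design (Cyp1, Cyp2, Cyp3, Cyp4, Cyp7, Cyp8, Cyp26, Cyp27 or Cyp39 followed by a letter and a number), and a gene was kept when 3 or more of the 12 liver arrays read its probe well above background. Of 64 names, 62 were kept, out of 14765 genes in the fit of the livers. The kept genes comprised 3 of family 1, 33 of family 2, 6 of family 3, 12 of family 4, 2 each of the Cyp7, Cyp26 and Cyp27 families, and 1 each of the Cyp8 and Cyp39 families. Cyp2c65 reached background on at most 1 liver array and Cyp2w1 on 0, so both were left out. At the edge of the rule, Cyp1a1 was above background on 3 liver arrays, Cyp4x1 on 5, Cyp1b1 on 9, Cyp2c66 and Cyp4a12 on 10 and Cyp2b19 on 11, and the other 56 genes on all 12. The arrays that let Cyp1a1 pass were all from 2 h livers with stem cells, and those for Cyp4x1 all from 2 h livers, so the rule kept both through the livers where they are high and their changes are given as a description.

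All mice were female C57Bl/6 mice that received 300 µg of concanavalin A, a lectin from jack beans whose activation of T cells injures the liver. Some were also given 100000 stem cells into the tail vein, grown in culture from the inguinal fat of C57Bl/6 mice. The 4 liver groups had 3 mice each: livers taken at 2 h without stem cells or with stem cells given immediately, and livers taken at 5 h without stem cells or with stem cells given at 3 h. Inflammatory cells were isolated from livers at 5 h, 2 samples from mice without stem cells and 2 from mice given stem cells at 3 h. Whether every such sample had its own mouse is not in the labels, so p-values there measure only the spread between these samples, which may be technical. For the cells without stem cells the source label also mentions the treatment, and they were used as untreated because their treatment and description labels do not. No mouse without concanavalin A was measured, so time since the injection and time of day cannot be told apart.

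Cytochrome P450 enzymes are haem proteins that insert oxygen into small molecules. In hepatocytes, families 1 to 3 oxidise drugs, toxins and steroids, and family 4 hydroxylates fatty acids and eicosanoids. Cyp7a1 starts the main route from cholesterol to bile acids, Cyp27a1 and Cyp7b1 act in the alternative route, Cyp8b1 sets the share of cholic acid, Cyp39a1 hydroxylates an oxysterol, family 26 degrades retinoic acid, and Cyp2r1 and Cyp27b1 activate vitamin D. Many of these genes are known to fall in liver inflammation, and several follow the day and night cycle.

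Levels are log2 signal relative to the 75th percentile of the same array, so a level can be compared between samples of 1 gene but not between genes. Changes are differences of group means with the standard error of the limma fit, adjusted p-values are Benjamini-Hochberg values over all genes of that fit, and a gene was called when its adjusted p was under 0.05. Arrays had 52.1% to 62.5% of spots above background and 0 saturated spots, and their number limits the precision. Hepatocyte markers stood at a median of 7.99 to 8.36 in the 12 livers. Each of slides 1 to 3 held 1 liver of each group, while slide 4 held all samples of cells, so tissue and slide cannot be told apart. The livers of mice 13 (2 h, no stem cells) and 10 (2 h, stem cells) stood apart from the other 2 h livers. Their median level of neutrophil markers was −0.93 and −0.04, against 1.35 to 1.88 in the other 4, and cholesterol 25-hydroxylase, Ch25h, stood at −4.52 and −2.78 against 2.23 to 4.07. Counts that rest on the 2 h livers are therefore also given without these mice, with the calls that were then lost or gained among the genes named. In whole tissue, fewer cells of a type and less RNA per cell cannot be told apart.

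Between 2 h and 5 h after concanavalin A alone, a small set of P450 genes fell and 2 rose, while Cyp2e1 and the 6 genes of family 3 did not pass the test. Cyp2a4, Cyp2a5, Cyp2g1, Cyp2c55 and Cyp4f15 fell 2.06-fold or more, and the oxysterol hydroxylase Cyp7b1 rose 3.38-fold. In all, 12 of 62 genes were called (19.4%), against 15.7% of all genes tested. The 10 that fell are 16.1% of the members, against 9.25% of all genes, and the 2 that rose are 3.23%, against 6.5%. Without Cyp1a1 and Cyp4x1, 8 of 60 fell (13.3%) and 2 rose. Of the 62 changes 49 were below 0, with a median of −0.21 against −0.08 over all genes. At an unadjusted p under 0.05 there were 20 members, against 32.3% of all genes, and the groups did not overlap for 18 members, against 35.9%. Of the 10 that fell, Cyp1a1 was below background in all 6 livers. On slides 1 to 3 the median change of the members was −0.43, −0.04 and −0.15. The count was 2 with normexp background correction (1.83% of all genes called), 4 in a fit of these 6 arrays alone (2.42%) and 7 without mouse 4 (6.20%) or without mouse 6 (6.06%). Without mice 10 and 13 it was again 12 (12.9% of all genes), 9 of them called in both fits. The markers of hepatocytes had 0 of 8 called in this comparison, with summed levels of 11.5 to 11.7 at 2 h and 11.7 to 11.9 at 5 h. Markers of endothelial and stellate cells had 3 of 6 fallen in each list, and neutrophil markers had a median change of 1.89 with 0 of 5 called. The part of these other cells in the P450 changes was not tested.

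**Figure D1:**
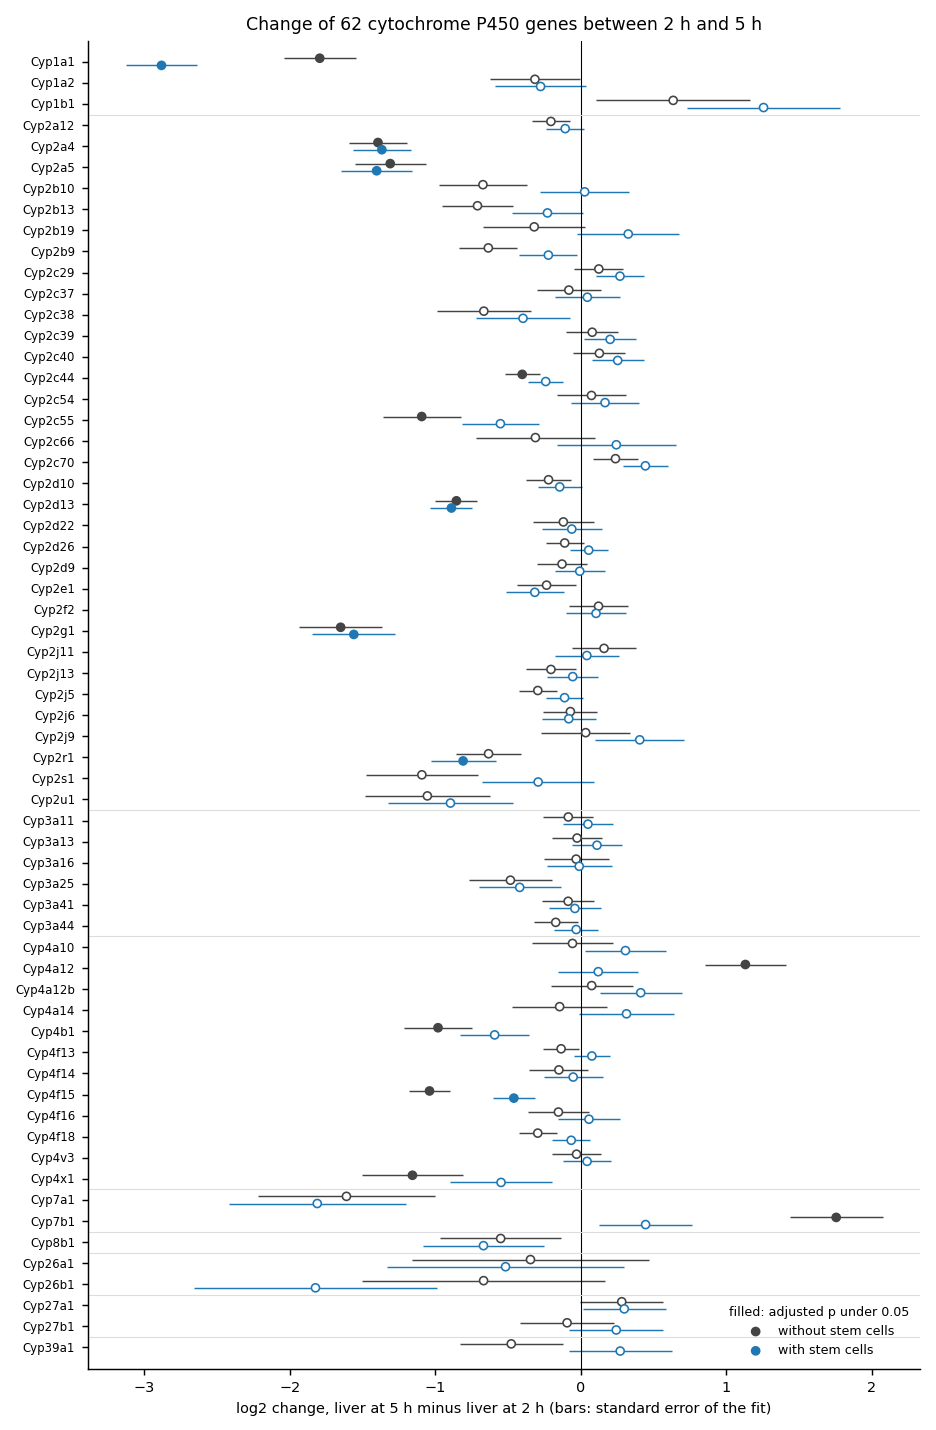
Change in log2 level from 2 h to 5 h for the 62 genes, ordered by family, without stem cells (grey) and with stem cells (blue). Points are differences of group means of 3 livers, bars are standard errors of the fit, and filled points have an adjusted p under 0.05, 12 of 62 without and 7 of 62 with stem cells.

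Among family 2 genes a fall of similar size was measured for Cyp2a4, a steroid hydroxylase, and for Cyp2a5, which hydroxylates coumarin and nicotine. Their promoters are near copies of each other, which is why they are shown here. Over the 250 bases before the start, 245 of 249 aligned bases are identical (98.4%), and capitals mark the 4 that differ (RefSeq, GRCm38.p6, chr7:26306942-26307191 and chr7:26835089-26835338, both on the plus strand).
Cyp2a4: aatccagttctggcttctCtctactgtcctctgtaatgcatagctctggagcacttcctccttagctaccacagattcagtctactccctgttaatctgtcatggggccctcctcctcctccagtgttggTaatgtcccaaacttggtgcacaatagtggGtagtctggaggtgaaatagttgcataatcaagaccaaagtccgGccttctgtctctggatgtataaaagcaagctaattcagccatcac
Cyp2a5: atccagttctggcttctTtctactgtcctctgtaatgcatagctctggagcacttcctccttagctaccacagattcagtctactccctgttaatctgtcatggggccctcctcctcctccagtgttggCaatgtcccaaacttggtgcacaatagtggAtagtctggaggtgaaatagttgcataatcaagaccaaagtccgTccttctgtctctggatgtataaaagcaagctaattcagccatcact
Cross-hybridisation between the transcripts of this pair was not tested, so the values of the 2 genes may not be independent.

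Cyp2a4 stood at 9.14, 9.08 and 8.72 in the 2 h livers and at 7.29, 7.78 and 7.68 in the 5 h livers, without overlap. The change was −1.39 ± 0.20 (2.63-fold lower, adjusted p = 0.00353). All 3 probes of Cyp2a4 fell, by 1.15 to 1.53 on the log2 scale. Cyp2a5 was at 8.70, 8.88 and 8.09 at 2 h and 6.93, 7.44 and 7.37 at 5 h, again with every 5 h liver below every 2 h liver, and fell by 1.31 ± 0.24 (adjusted p = 0.00863).

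Cyp2g1, known mainly from the olfactory mucosa, had levels of 1.00, 1.76 and 0.71 at 2 h and −0.87, −0.23 and −0.39 at 5 h. It fell by 1.65 ± 0.28 (adjusted p = 0.00645), and the groups did not overlap. Cyp2d13 went from 3.24, 3.22 and 2.85 to 2.32, 2.31 and 2.12, a fall by 0.86 ± 0.14 (adjusted p = 0.006). Cyp2c55, an arachidonic acid hydroxylase, went from 1.00, 1.16 and 1.51 to −0.16, 0.58 and −0.02 and fell by 1.09 ± 0.27 (adjusted p = 0.024). Cyp2c44, which makes epoxides of arachidonic acid and is named Cyp2c23 in current RefSeq, had the smallest called change, a fall by 0.40 ± 0.12 (adjusted p = 0.0471). Without mice 10 and 13 the adjusted p was 0.0559 for Cyp2c55 and 0.112 for Cyp2c44.

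Among the fatty acid hydroxylases of family 4, Cyp4f15, which acts on eicosanoids, stood at 4.45, 4.58 and 4.67 at 2 h and 3.75, 3.37 and 3.47 at 5 h. It fell by 1.04 ± 0.14 (2.06-fold, adjusted p = 0.00303). Cyp4b1 fell by 0.98 ± 0.24, from 1.22, 1.44 and 2.10 to 0.56, 0.75 and 0.51 (adjusted p = 0.0225). Cyp4x1 was above background in 2 of 3 livers at 2 h and 0 of 3 at 5 h. The 5 h level was lower by a factor of at least 1.30. Its adjusted p of 0.049 is no support, since only 2 h livers brought the gene past the rule, and it was 0.0833 with no filter and 0.143 without mice 10 and 13. Cyp4a12, named Cyp4a12a in current RefSeq, rose by 1.13 ± 0.28 from −4.26, −3.58 and −3.24 to −2.36, −2.61 and −2.71 (adjusted p = 0.0239), with 1 of the 2 h livers below background. Its close relative Cyp4a12b changed by 0.07 ± 0.28 (adjusted p = 0.881).

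**Figure D2:**
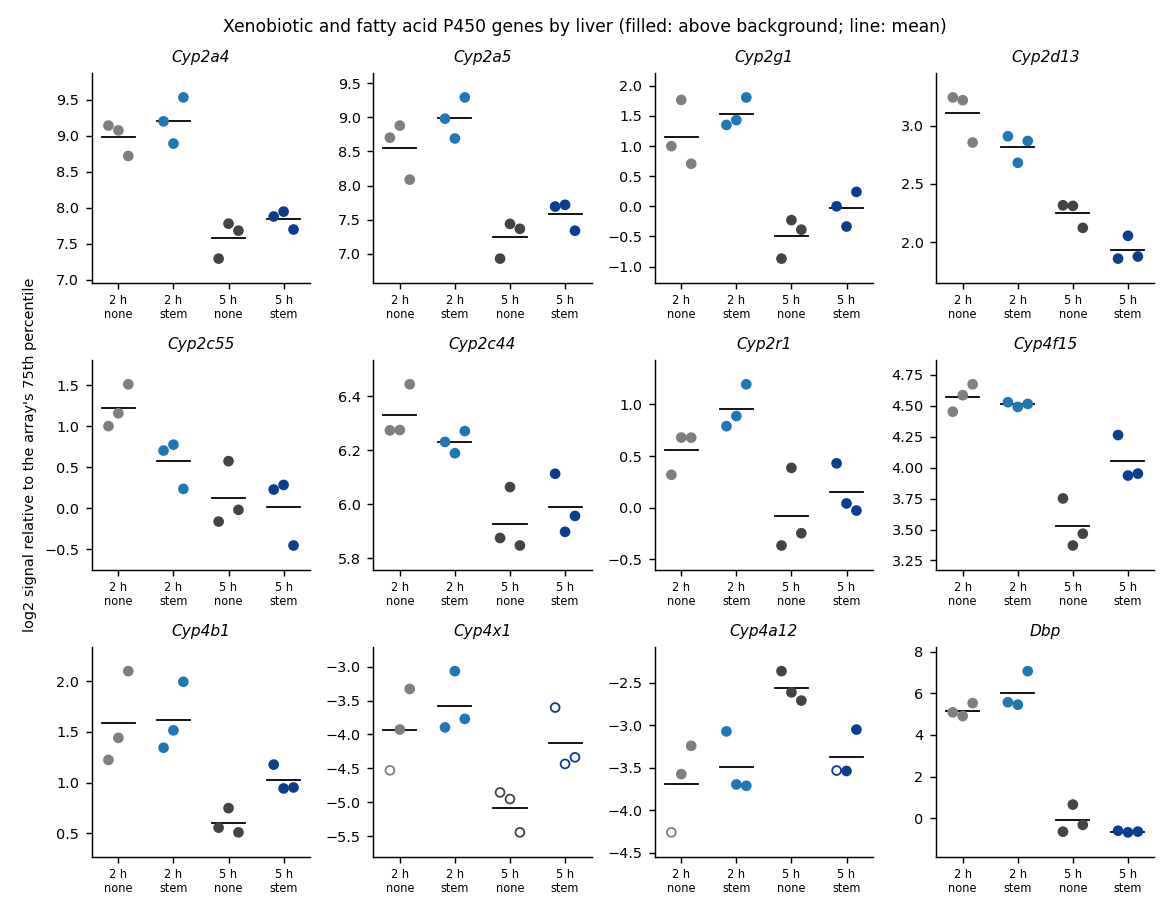
Level of 11 P450 genes and of the transcription factor gene Dbp in each of the 12 livers, as log2 signal relative to the 75th percentile of the array. Filled points are above background and lines are group means of 3. Every 5 h liver lies below every 2 h liver for Cyp2a4, Cyp2a5, Cyp2g1, Cyp2d13, Cyp2c44, Cyp4f15, Cyp4b1 and Dbp.

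Several main drug-metabolising genes did not pass the test. Cyp3a11, the main inducible drug oxidase of mouse liver, was at 7.29, 7.36 and 7.01 at 2 h and 6.86, 7.26 and 7.26 at 5 h, a change of −0.09 ± 0.17 (adjusted p = 0.765). The change of Cyp2e1, which oxidises ethanol and paracetamol, was −0.24 ± 0.20 (adjusted p = 0.449). Those of Cyp1a2, Cyp2c29, Cyp2f2 and Cyp3a13 were −0.32 ± 0.31, 0.12 ± 0.17, 0.12 ± 0.20 and −0.03 ± 0.17. None of the 6 genes of family 3 was called, with changes of −0.48 to −0.03. Cyp4a10 and Cyp4a14, targets of PPAR alpha, changed by −0.06 ± 0.28 and −0.15 ± 0.33, and Cyp4v3, a fatty acid hydroxylase, by −0.03 ± 0.17. The phenobarbital-inducible Cyp2b10 and its relatives Cyp2b9 and Cyp2b13 had changes of −0.67 ± 0.30, −0.64 ± 0.20 and −0.71 ± 0.24, with adjusted p-values of 0.156, 0.0547 and 0.0712. All 3 passed without mice 10 and 13, at 0.0215, 0.0202 and 0.0112. Fitted on their own, the other kept probes of these 3 genes changed by −0.59 ± 0.40, −0.66 ± 0.25 and −1.17 ± 0.31. Their adjusted p-values over 22765 probes were 0.352, 0.113 and 0.03475, so Cyp2b13 passed with its other probe.

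Among the bile acid P450 genes, Cyp7b1 rose and no other passed the test on the probe used. Cyp7b1 stood at 2.19, 2.96 and 1.91 in the 2 h livers and at 3.98, 4.02 and 4.32 in the 5 h livers. The 5 h livers were all higher, by 1.75 ± 0.32 (adjusted p = 0.00811), and by 1.02, 1.83 and 2.41 on slides 1 to 3. This rise passed the test in 20 of 20 alternatives. Cyp8b1, Cyp27a1 and Cyp39a1 changed by −0.55 ± 0.41, 0.28 ± 0.29 and −0.48 ± 0.36, with adjusted p-values of 0.392, 0.531 and 0.385.

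For Cyp7a1, the rate-limiting enzyme of bile acid synthesis, the result depended on the probe. The probe that the rule takes (mm8, chr4:6195632-6196238) read −0.60, −0.53 and 0.65 at 2 h and −2.66, −1.21 and −1.45 at 5 h. All 5 h livers were lower, by 1.61 ± 0.61, but the adjusted p was 0.0974. The other probe (mm8, chr4:6193456-6193515) read −0.61, −0.98 and 2.26 at 2 h and −5.84, −5.25 and −2.91 at 5 h, where 1 of 3 livers was above background. Fitted on its own, with adjustment over 22765 probes, it changed by −4.89 ± 1.01 (adjusted p = 0.0147), and by −3.87 without mice 10 and 13 (adjusted p = 0.0217). With either probe every 5 h liver was below every 2 h liver, and the size of the change differed. The annotation in the files does not say which exon or untranslated region either probe lies in. Of the 17 members with several kept probes, 2 had changes that differed by more than 1 between probes, Cyp7a1 and Cyp3a44. The used probe of Cyp3a44 changed by −0.17 ± 0.15 and its other probe by 1.39 ± 0.74, neither past the threshold.

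**Figure D3:**
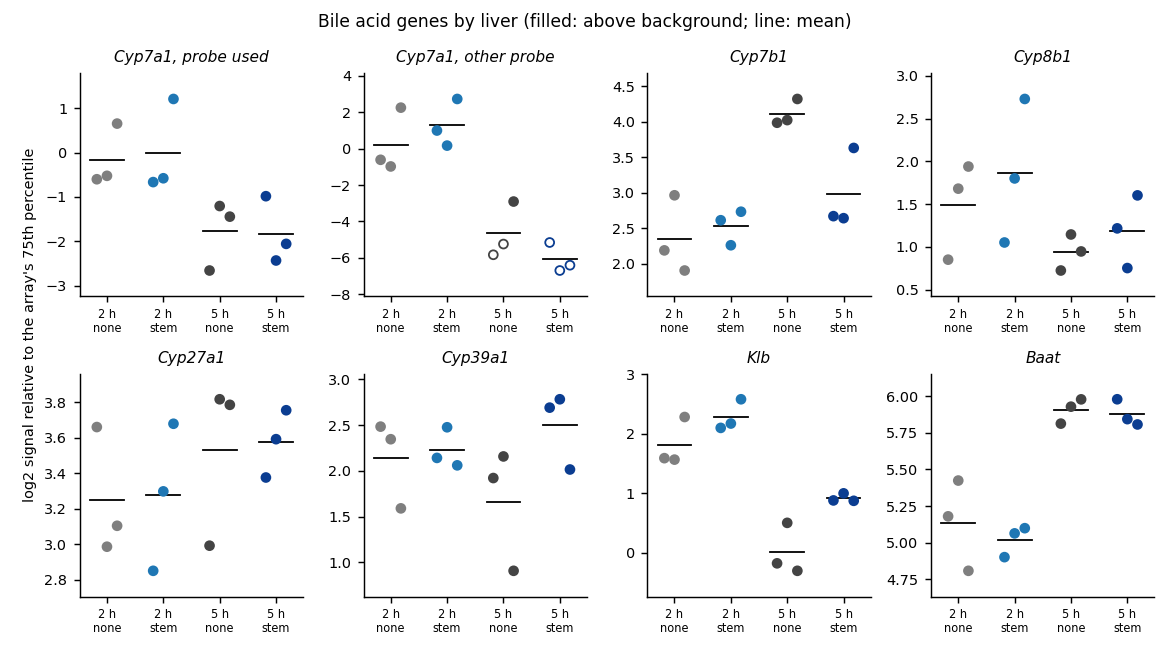
Level in each liver of the bile acid P450 genes, with both probes of Cyp7a1, and of Klb and Baat, as log2 signal relative to the 75th percentile of the array. Filled points are above background and lines are means of 3 livers. The other probe of Cyp7a1 reads −0.98 to 2.73 in the 2 h livers and −6.70 to −2.91 in the 5 h livers.

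Other genes of bile acid synthesis and its feedback followed no single direction. Of 14 measured, 1 rose and 3 fell, against 6.5% and 9.25% of all genes. Without mice 10 and 13, 2 rose and 3 fell, in a fit where 12.9% of all genes were called in either direction. Baat, which joins bile acids to taurine, rose by 0.77 ± 0.16 (adjusted p = 0.013). Klb, the co-receptor for the gut hormone that represses Cyp7a1, went from 1.59, 1.57 and 2.28 to −0.18, 0.50 and −0.30 and fell by 1.81 ± 0.25 (adjusted p = 0.00326). Amacr and Slc27a2, of side chain shortening, fell by 0.90 ± 0.18 and 0.43 ± 0.13. Ch25h, which makes the oxysterol that Cyp7b1 degrades, was higher in 3 of 3 livers at 5 h, by 4.00 ± 2.07 (adjusted p = 0.212). Without mice 10 and 13 the difference in Ch25h was 1.15 (adjusted p = 0.00623).

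Several receptors and transcription factors that control P450 genes also fell. Of 25 measured from a list of 27, 8 fell and 1 rose, against 9.25% and 6.5% of all genes. Without mice 10 and 13, 9 fell and 4 rose, in a fit where 12.9% of all genes were called in either direction. The 4 that rose then were Arntl by 3.20, Cebpa by 1.29, Tiparp by 1.20 and Vdr, which was above background in 0 of the 2 h livers. Dbp, Tef and Hlf, the clock-driven factors that are known to activate Cyp2a4 and Cyp2a5, fell by 5.28 ± 0.43, 2.55 ± 0.32 and 2.03 ± 0.29. Dbp read 5.08, 4.90 and 5.52 at 2 h and −0.65, 0.65 and −0.32 at 5 h. Ppara fell by 2.16 ± 0.36, Nr1i3, the receptor CAR, by 1.30 ± 0.23, Nr1h4, the bile acid receptor FXR, by 1.00 ± 0.19, Nr1h3 by 0.66 ± 0.15 and Rxra by 0.54 ± 0.15. Cebpb, an inflammatory activator, rose by 0.79 ± 0.21, with an adjusted p of 0.0324, or 0.0877 without mice 10 and 13. The partners of P450 enzymes and the haem genes, among them the reductase Por, had 0 of 8 called. Their counts stand as a description, since the lists were chosen with earlier results known.

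In the livers of mice given stem cells the same 3 h brought a fall in 7 of 62 genes and a rise in 0, 11.3% against 18.4% of all genes. For the fall alone the background was 9.64%, and 8.78% of all genes rose. Before adjustment 11 members had a p under 0.05, against 33.4% of all genes, and the groups did not overlap for 18, against 42.7%. The count was 1 with normexp background correction (5.59% of all genes called) and 14 with array weights (22.6%, against 35.6% of all genes). Without Cyp1a1 and Cyp4x1, 6 of 60 fell. Of the 62 changes 35 were below 0, with a median of −0.05 against −0.08 over all genes. These livers share no sample with those of mice without stem cells, but both comparisons use the spread of 1 fit. Members called lower in both were Cyp1a1, Cyp2a4, Cyp2a5, Cyp2d13, Cyp2g1 and Cyp4f15. The share of all genes that fell in both is not given, so their number is not set against a background. Cyp1a1 was kept only through the 2 h livers with stem cells. Livers at 5 h with stem cells had received them at 3 h and those at 2 h immediately, so time and schedule cannot be told apart.

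Cyp2a4 went from 9.20, 8.89 and 9.53 to 7.88, 7.95 and 7.70 and fell by 1.37 ± 0.20 (adjusted p = 0.00244). Cyp2a5 fell by 1.40 ± 0.24, Cyp2g1 by 1.56 ± 0.28 and Cyp2d13 by 0.89 ± 0.14, each without overlap. Cyp2r1, a vitamin D 25-hydroxylase, went from 0.79, 0.89 and 1.19 to 0.43, 0.04 and −0.03 and fell by 0.81 ± 0.22 (adjusted p = 0.0318). Cyp4f15 fell by 0.46 ± 0.14 (adjusted p = 0.0497), a call that held in 6 of 20 alternatives. Without mice 10 and 13 the adjusted p was 0.0886 for Cyp2r1 and 0.0846 for Cyp4f15, and 5 genes were called, 8.06% against 19.7% of all genes.

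Cyp7b1 changed by 0.45 ± 0.32 with stem cells (adjusted p = 0.371), from 2.61, 2.26 and 2.73 to 2.67, 2.64 and 3.63, and the groups overlapped. The used probe of Cyp7a1 went from −0.67, −0.58 and 1.21 to −0.98, −2.43 and −2.06, a change of −1.81 ± 0.61 (adjusted p = 0.0638). Its other probe was above background in 3 of 3 livers at 2 h, at 1.00, 0.17 and 2.73, and in 0 of 3 at 5 h. Its signal fell by a factor of at least 39.9 (adjusted p = 0.00185), and without mice 10 and 13 the adjusted p was 0.000994. Of the 14 other bile acid genes 1 rose and 1 fell, against 8.78% and 9.64% of all genes. Baat rose by 0.86 ± 0.16 and Klb fell by 1.37 ± 0.25. Without mice 10 and 13, 2 of the 14 rose and 2 fell, where 19.7% of all genes were called in either direction. In that fit Ch25h rose by 2.33 (adjusted p = 0.000102) and Fgfr4 fell by 0.52 (adjusted p = 0.037). Of the 25 regulators 6 fell and 1 rose, against 9.64% and 8.78% of all genes. Without mice 10 and 13, 5 fell and 2 rose, in a fit where 19.7% of all genes were called in either direction. Dbp fell by 6.67 ± 0.43, and Tiparp, a target of the aryl hydrocarbon receptor, rose by 2.90 ± 0.67 (adjusted p = 0.0162).

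Stem cells given together with concanavalin A left 0 of 62 genes called in the 2 h livers, where 4 of all genes passed (0.0271%). At an unadjusted p under 0.05 there were 3 members, Cyp1a1, Cyp26b1 and Cyp2c55, against 5.62% of all genes. The median change of the members was 0.08, as was that of all genes. The groups did not overlap for 6 members, against 8.24% of all genes. Cyp2c55 read 0.70, 0.78 and 0.24 with stem cells against 1.00, 1.16 and 1.51 without, a change of −0.65 ± 0.27 (adjusted p = 0.854, or 0.627 without mice 10 and 13). The median interval of a member's change reached 0.50 on either side. Without mice 10 and 13, 1 of the 62 members was called, Cyp1a1 (1.61%), against 452 of all genes (3.06%). Only the livers with immediate stem cells brought Cyp1a1 past the rule, so its p-values in this comparison are no support.

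Cyp1a1, the classical target of the aryl hydrocarbon receptor, came closest. Its promoter is shown because its 250 bases hold 1 copy of GCGTG, the core of the element that this receptor binds, in capitals, with the first base 54 bases before the start (RefSeq, GRCm38.p6, chr9:57697363-57697612, plus strand).
Cyp1a1: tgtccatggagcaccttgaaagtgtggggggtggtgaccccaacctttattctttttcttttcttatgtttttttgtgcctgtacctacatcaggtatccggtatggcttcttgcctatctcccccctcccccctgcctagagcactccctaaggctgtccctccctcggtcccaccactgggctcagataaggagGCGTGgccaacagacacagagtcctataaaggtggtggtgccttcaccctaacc
GCGTG, searched on both strands, was present in 8 of the 48 members that have a promoter in the table and in 28.2% of all 32851 promoter entries, so its presence is common.

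Cyp1a1 read −4.56, −4.99 and −4.30 in livers without stem cells, all below background, and −3.24, −2.79 and −2.72 in livers with stem cells, all above it. The stem cell livers were all higher, by at least 2.40-fold, and the adjusted p was 0.0839. On slides 1 to 3 the difference was 1.76, 1.84 and 1.52. Since only these 3 livers brought Cyp1a1 past the rule, the rule used this difference and its p-values are no support. The adjusted p was 0.15 with no filter, 0.00871 without mouse 13, 0.0164 without mice 10 and 13 and 0.0197 with array weights. Of the other aryl hydrocarbon receptor targets, Cyp1a2 changed by 0.30 ± 0.31, Cyp1b1 by −0.43 ± 0.53 and Tiparp by −0.82 ± 0.67, and the receptor gene Ahr by −0.05 ± 0.23. At 5 h Cyp1a1 was below background in all 6 livers. It was called lower at 5 h without stem cells (adjusted p = 0.0029), where all 6 livers compared were below background and no fold is given. With stem cells the 5 h level was below the 2 h level by a factor of at least 2.15 (adjusted p = 0.000273), again against the livers through which the gene was kept.

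The retinoic acid hydroxylases Cyp26a1 and Cyp26b1 varied most between mice of 1 group. Their pooled SD within liver groups was 1.12 and 1.15, against 0.0970 for Cyp2c44, the lowest of the 62. The promoter of Cyp26a1 is shown for its retinoic acid response element, since the gene is the textbook sensor of retinoic acid. The search was for AGTTCA, any 5 bases and AGTTCA again, on both strands, and the match is on the minus strand of the gene, in capitals, from 32 bases before the start (RefSeq, GRCm38.p6, chr19:37697558-37697807, plus strand).
Cyp26a1: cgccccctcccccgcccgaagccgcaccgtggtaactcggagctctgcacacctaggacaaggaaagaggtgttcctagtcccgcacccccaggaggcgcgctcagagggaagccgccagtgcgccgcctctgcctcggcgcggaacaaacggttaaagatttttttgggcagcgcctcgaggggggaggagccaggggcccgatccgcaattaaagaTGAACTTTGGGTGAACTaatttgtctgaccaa
This motif was present in 1 of the 48 members with a promoter in the table and in 7 of all 32851 entries (0.0213%).

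Cyp26a1 read 2.86, 3.06 and 3.25 at 2 h without stem cells and 2.93, 3.84 and 4.07 with them. At 5 h it read 0.56, 4.82 and 2.76 without stem cells, the widest spread of the 4 groups, and 3.46, 2.97 and 2.85 with them. No comparison of Cyp26a1 in liver passed, with changes of −0.52 to 0.55. Cyp26b1 read −0.83, −0.34 and −0.35 at 2 h without stem cells and 0.88, 1.83 and 2.19 with them. The stem cell livers were all higher, by 2.14 ± 0.83, with an adjusted p of 0.838, or 0.41 without mice 10 and 13. At 5 h Cyp26b1 read −2.26, 0.87 and −2.13 without stem cells, and mouse 5 was highest there for both genes. Of 8 genes of retinoid handling, 2 fell from 2 h to 5 h without stem cells and 1 with, against 9.25% and 9.64% of all genes. Without mice 10 and 13, 0 and 1 fell, where 12.9% and 19.7% of all genes were called in either direction. Lrat, which stores retinol as ester and is also 1 of the stellate cell markers, fell by 1.84 ± 0.53 without and 2.12 ± 0.53 with stem cells (adjusted p = 0.0419 and 0.0212, or 0.0677 and 0.027 without mice 10 and 13).

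**Figure D4:**
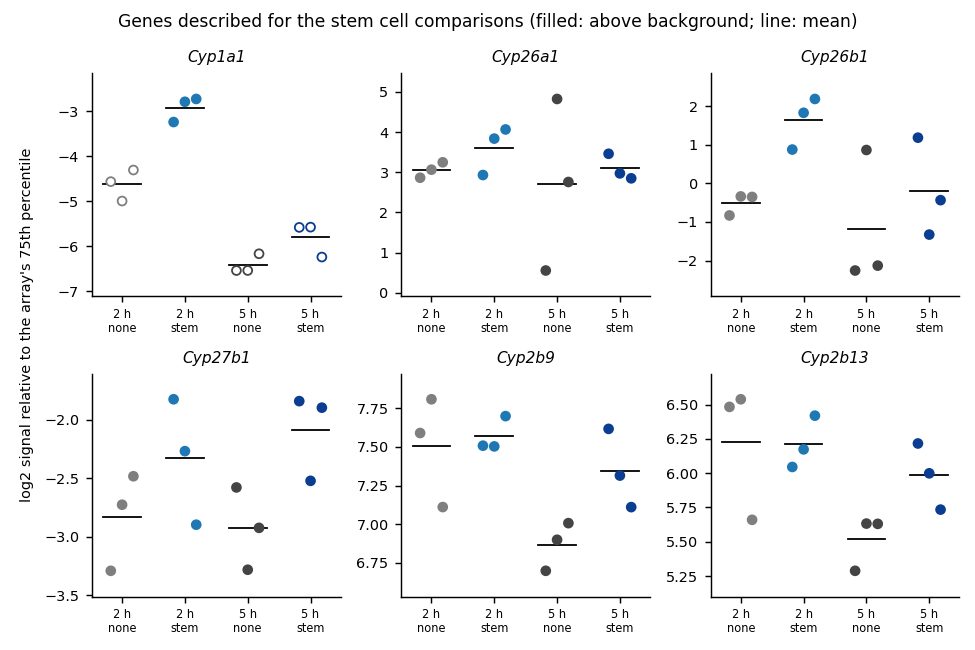
Level in each liver of 6 genes described for the stem cell comparisons, as log2 signal relative to the 75th percentile of the array. Filled points are above background and lines are means of 3 livers. Cyp1a1 is above background only in the 3 livers with immediate stem cells, and Cyp26b1 is higher in those 3 than in the 2 h livers without.

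Stem cells given at 3 h left 0 of 62 genes called in the 5 h livers, where 5 of all genes passed (0.0339%). At an unadjusted p under 0.05 there were 9 members, against 12.4% of all genes. Of the 62 changes 57 were above 0, with a median of 0.22, against 60.1% and 0.08 for all genes. The groups did not overlap for 17 members, 14 higher and 3 lower, against 22.1% of all genes. On slides 1 to 3 the median change was 0.35, 0.07 and 0.27. Hepatocyte markers were above 0 for 7 of 8 with a median of 0.20, and periportal markers for 7 of 7 with a median of 0.28, with 0 called in either list. The medians of endothelial, neutrophil, leukocyte, stellate and pericentral markers were 0.46, 0.44, 0.23, 0.21 and 0.17, so the markers of every cell type listed shifted upward. The part of any cell type in the members' shift was not tested.

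The 3 genes with lower levels in every stem cell liver were Cyp7b1, Cyp4a12 and Cyp2d13. Cyp7b1 read 2.67, 2.64 and 3.63 with stem cells against 3.98, 4.02 and 4.32 without, a change of −1.13 ± 0.32 (adjusted p = 0.253). Cyp4a12 changed by −0.81 ± 0.28 (adjusted p = 0.30) and Cyp2d13 by −0.32 ± 0.14 (adjusted p = 0.403). Cyp7b1 and Cyp4a12 are the 2 genes that rose between 2 h and 5 h without stem cells, and both contrasts share the untreated 5 h livers.

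Cyp4f15 read 4.26, 3.94 and 3.95 with stem cells and 3.75, 3.37 and 3.47 without. The stem cell livers were all higher, by 0.52 ± 0.14, and its adjusted p of 0.25 was the lowest of the 62. Cyp27b1, the vitamin D 1-alpha-hydroxylase, read −1.84, −2.52 and −1.90 against −2.58, −3.28 and −2.92, higher by 0.84 ± 0.32 (adjusted p = 0.345). Cyp39a1 changed by 0.84 ± 0.36 with overlapping groups (adjusted p = 0.381), and Cyp2b9 by 0.48 ± 0.20 without overlap (adjusted p = 0.372). Cyp7a1, Cyp8b1 and Cyp27a1 changed by −0.06 ± 0.61, 0.25 ± 0.41 and 0.04 ± 0.29, Cyp3a11 by 0.07 ± 0.17 and Cyp2e1 by 0.19 ± 0.20. The test of the difference between the 2 stem cell effects, at 5 h and at 2 h, called 0 of 62 members and 2 of all genes (0.0135%). At an unadjusted p under 0.05 there were 4 members, against 4.63% of all genes. The largest difference was that of Cyp7b1, −1.31 ± 0.45 (adjusted p = 0.939).

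The members were kept for their signal in liver, while the genes they are set against include some kept through the cells, so lower levels in cells are partly fixed by the rule and are given as a description. At 5 h without stem cells 60 of 62 changes were below 0 and 2 above, with a median of −6.89. Of the members 55 were called lower and 1 higher. That is 90.3% called, against 63.6% of all genes (32.8% lower and 30.8% higher). Before adjustment 57 members had a p under 0.05, against 66.9%, and the groups did not overlap for 58, against 74.8%. Cyp3a11 was lower by 7.27 ± 0.45 and Cyp2e1 by 8.33 ± 0.69 on the log2 scale. Of the 62 genes 41 were above background on all 4 arrays of cells and 8 on none. Cyp4f16 was the gene called higher in cells, at −0.27 and −1.06 against −1.68, −1.94 and −1.39 in liver (1.00 ± 0.27, adjusted p = 0.006). Cyp4x1 also read higher in cells but was not called, at −4.43 and −4.40 against −4.86, −4.95 and −5.45 in liver, all below background there. Cyp4f18, a leukotriene B4 hydroxylase of neutrophils, read 1.95 and 2.68 in cells and 2.69, 2.96 and 2.71 in liver, a difference of −0.47 ± 0.21 (adjusted p = 0.063).

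In the cells, stem cells at 3 h left 0 of 50 members called, where 2 of all genes passed (0.0139%). At an unadjusted p under 0.05 there were 5 members, against 18.1% of all genes. Of the 50 changes 44 were above 0, with a median of 1.02, against 55.0% and 0.09 for all genes. Hepatocyte markers were above 0 for 8 of 8 with a median of 0.80. Markers of neutrophils, endothelial cells and leukocytes had medians of 1.89, 0.77 and 0.70, and periportal, stellate and pericentral markers 0.55, 0.27 and 0.12. A shift upward was thus not particular to hepatocyte markers. The median level of the hepatocyte markers was 1.28 and 2.34 without stem cells and 2.26 and 3.10 with them. The median level of the 62 P450 genes was −3.42 and −1.57 in the same order and then −2.29 and −0.78. In both groups the sample with more hepatocyte marker signal had the higher P450 median. The part of hepatocyte RNA, or of RNA from the other cell types, in these changes was not tested.

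Cyp4f18 read 4.04 and 3.99 with stem cells against 1.95 and 2.68 without, higher by 1.70 ± 0.39 (adjusted p = 0.157). Neutrophil markers had medians of 6.44 and 6.49 with and 4.76 and 3.94 without stem cells. Cyp26b1 read 0.13 and −0.02 against −3.50 and −1.06 (2.34 ± 0.77, adjusted p = 0.212). Cyp2s1 was higher by 2.35 ± 0.66 (adjusted p = 0.183) and Cyp27a1 by 2.10 ± 0.82 (adjusted p = 0.26). Cyp4f13 was higher by 0.95 ± 0.38 (adjusted p = 0.264). The groups did not overlap for 10 members, these 5 among them, against 52.7% of all genes. With normexp background correction 3 members were called (6%, against 7.32% of all genes). Without sample 985, 8 members were called, all higher with stem cells: Cyp26a1, Cyp26b1, Cyp27a1, Cyp2s1, Cyp39a1, Cyp4f15, Cyp4f18 and Cyp4v3. That is 16% of the members, against 14.5% of all genes. That fit has 1 sample in the group without stem cells, which is assumed to vary like the other group.

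**Figure D5:**
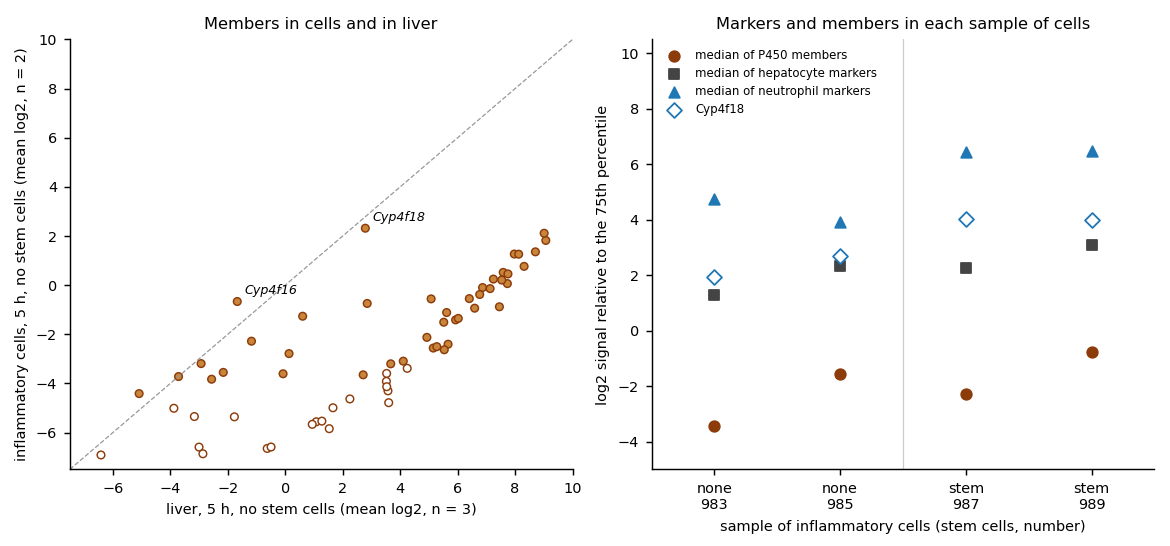
Left: mean log2 level of the 62 genes in inflammatory cells (n = 2) against liver (n = 3) at 5 h without stem cells, with the line of equal levels; filled points are above background in both samples of cells. Right: median log2 level of the P450 genes, of hepatocyte markers and of neutrophil markers, and the level of Cyp4f18, in each sample of cells, with P450 medians from −3.42 to −0.78.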

How the data were processed

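RNA of 16 samples was hybridised to 1 Agilent mouse array design, labelled with Cy3 alone. The authors' deposited scanner files hold spot intensity on a linear scale as written by Agilent Feature Extraction 10.5.1.1 (version per the file headers). Those headers also record that a fitted spatial background was subtracted, the signal was detrended, spots near background got a surrogate value, and no normalization between arrays was applied. From each log2 processed signal the 75th percentile of its array was subtracted, with control and outlier spots left out. Probes above background on 3 of 12 liver arrays were kept (2 of 4 arrays for cells), and a gene was represented by its brightest kept probe by mean over all arrays. Groups were compared with limma 3.58.1 in R 4.3.3 (2-sided, Benjamini-Hochberg over all genes of a fit), on 14765 genes for liver, 14372 for cells and 15843 for both.

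The 12 livers shared 1 fit, the cells had their own, and the tissue comparison used all 16 arrays. A gene below background on every array of 1 group has only a bound: the brighter mean over the dimmer mean, with the lowest signal above background on each array as a floor. Named genes were members past the threshold, the 5 with the smallest p where fewer than 5 passed in a direction, and a panel of bile acid, retinoid, vitamin D and main hepatic P450 genes. The members, lists and rules were chosen with earlier results of these data known. Fits of single probes were added after seeing the data. The fit was tested on simulated data for the comparison of 5 h with 2 h without stem cells: of 100 genes changed by 1 on the log2 scale 42% were recovered, of 100 changed by 2 83%, among 14765 genes. There were 7 false calls. Only these genes were changed, fewer than the 15.7% of all genes called in the data, so recovery in the data can differ. Promoters are RefSeq sequences of GRCm38.p6 (48 of 62 members matched), read in Python 3.11.15, and probe positions are mm8. Cyp2c23, Cyp2c54, Cyp2d13, Cyp2d22, Cyp2g1, Cyp2u1, Cyp39a1, Cyp4a10, Cyp4a12a, Cyp4a12b, Cyp4a14, Cyp4x1, Cyp7a1 and Cyp7b1 had no promoter entry in the table. One gene of the retinoid list is not reported here.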

Additional observations from a re-analysis of the deposited data

How the results depend on the processing

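Alternatives changed the background correction, the normalization, the filter, the choice of probe, the slide as a block, array weights, the arrays in the fit and the mice included. The authors' series value table equals the scanner signal, so it changed nothing. The number of members called moved by over 1.5 times as follows. Between 2 h and 5 h without stem cells 12 became 2 with normexp background (Cyp2g1 and Cyp7b1), 4 with only the arrays of the groups compared, and 7 to 12 when 1 liver was left out. For immediate stem cells 0 became 1 (Cyp1a1) with array weights (1.11% of all genes called) and without mice 10 and 13 (3.06%). It was 0 to 1 with 1 liver left out, the 1 being without mouse 13 (3.29%). These calls of Cyp1a1 are no support, since only the livers with immediate stem cells brought it past the rule. Between 2 h and 5 h with stem cells 7 became 1 with normexp (Cyp7a1), 14 with array weights, and 5 to 9 with 1 liver left out. For stem cells in inflammatory cells 0 became 3 with normexp (Cyp26b1, Cyp2s1 and Cyp4f18) and 0 to 8 with 1 sample left out. For stem cells at 5 h and the difference of effects it was 0 with any 1 liver left out, and for cells against liver 53 to 56. The cause of these moves was not tested. Where no share of all genes is given for a fit, its count or range is not set against a background.

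The named genes gave 69 results under 1264 alternative fits: 1133 kept direction and side of the threshold, 87 lost the call, 17 of them under normexp, 21 gained it, and 23 changed sign, with 0 of those past the threshold. Under normexp the sign turned for Cyp2a5 (−0.044) and Cyp4f16 (0.35) with immediate stem cells, Cyp7a1 with stem cells at 3 h (0.019), Cyp1b1 between times with stem cells (−0.18) and Cyp2r1 in the difference of effects (0.014). In inflammatory cells it turned under normexp for Cyp2r1 (0.60), Cyp4a12 (0.78), Cyp4f16 (0.045), Cyp4x1 (0.73) and Cyp7b1 (0.41), and for Cyp4f16 with the mean of all kept probes (0.0091). With 1 sample left out it turned for some of the samples, and the values ranged from −0.26 to 0.13 for Cyp2c55 and −0.50 to 0.25 for Cyp7a1 with stem cells at 3 h, and −0.32 to 0.056 for Cyp2r1 in the difference of effects. In the cells they ranged from −0.29 to 0.056 for Cyp4a12, −0.62 to 0.16 for Cyp4f16 and −1.83 to 1.1 for Cyp7b1.

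No paired analysis was possible by replicate number because the groups share no replicate numbers. Each of slides 1 to 3 held 1 liver of each group. With slide as a block 10 and 6 members were called between 2 h and 5 h without and with stem cells, and 0 for the stem cell comparisons. The share of all genes called in these fits is not given, so the counts are not set against a background. Genes near background, such as Cyp1a1, Cyp4x1 and Cyp4a12, are limited by signal, and 3 livers or 2 samples a group limit all comparisons.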
